A study of Mus musculus with 16 samples.

Results

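The genes described here are 10 genes of insulin-like growth factor (IGF) and insulin signaling, chosen by symbol from the 21923 genes of the deposited table. They are the ligands Igf1 and Igf2, the receptors Igf1r and Insr, the receptor substrates Irs1 and Irs2, the kinases Akt1 and Akt2, and the IGF binding proteins Igfbp4 and Igfbp5. Their levels were measured by poly(A) RNA-seq in the gastrocnemius, a calf muscle, of 16 mice, as 1 library per mouse and 4 mice per group. NOR mice were adult C57BL/6 or BALB/c mice injected with PBS instead of tumor cells. CAC mice were a model of cancer cachexia and carried subcutaneous tumors without drug: LLC lung carcinoma cells in the mice labelled C57BL/6 (replicates 1 and 2 of every group) and CT26 colon carcinoma cells in those labelled BALB/c (replicates 3 and 4). AM mice, titled T in the labels, carried the same tumors and were given amiloride, a diuretic that the study used to inhibit exosome release, intraperitoneally at 2 mg/kg each day from day 9. KD mice were given no drug and carried LLC or CT26 tumors in which Rab27, a GTPase gene pair needed for exosome release, had been knocked down with lentiviral shRNA. By the methods of the study, CAC, KD and NOR mice received PBS intraperitoneally each day from day 9, while the labels call them untreated. Muscles of all groups were taken on day 30. The host strain and the tumor line changed together and cannot be told apart, and NOR mice lacked tumor cells altogether.

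In muscle, IGF1 and insulin bind receptor tyrosine kinases that phosphorylate IRS proteins. These recruit PI3-kinase, which leads to the activation of AKT, and AKT favors protein synthesis and glucose uptake and keeps FOXO transcription factors out of the nucleus. IGF binding proteins hold IGFs outside the cell and can either limit or prolong their action.

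In CAC muscle the transcript of Igfbp5, the gene of the 10 with the highest CPM in NOR muscle, fell to a mean of 208 CPM from 874 CPM in NOR muscle, and that of Irs1 fell to 41.4 CPM from 101.9 CPM. Akt1 rose to 218 CPM from 113 CPM and Igfbp4 to 310.0 CPM from 174 CPM. In AM muscle Igfbp5 stood at 735 CPM and Akt1 at 124 CPM, and both differed from CAC. Igfbp4 had a mean of 278 CPM in AM, and Irs1 of 55.8 CPM, and neither was called against CAC. Igf1, Igf2, Igf1r, Insr, Irs2 and Akt2 were called in no comparison by this test. CPM are the counts divided by library size and scaled by TMM over the 16 libraries, and a gene was called when its edgeR FDR over all genes tested was at most 0.05 and its fold change at least 1.5 or at most 0.667.

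The libraries held between 35913190 and 61032708 counts on genes, so that counting error was small for these genes. Markers of fast myofibers summed to between 75722.3 and 216969.7 CPM in every library, so the muscle markers were present throughout. Some libraries stood apart. AM replicate 1 held hepatocyte transcripts, with 1837.8 CPM summed over 7 markers against at most 22.2 CPM in the other 15 libraries. KD replicate 3, labelled BALB/c, held 0 CPM of 4 Y-linked transcripts, which the other 15 libraries all held. The main methods of the study name male mice only, while its supplement and the labels name male and female BALB/c mice. Lymphocyte markers summed to 3.25 CPM or less in NOR replicate 1, CAC replicates 1 and 4 and KD replicates 2 and 3, and to at least 30.7 CPM in the others. The sum of 8 fibroblast markers ranged from 2465.6 to 3244.4 CPM in NOR and from 897 to 1467.3 CPM in CAC. AM libraries held 2110.4 to 2802.5 CPM of them and KD libraries 813.8 to 3338.6 CPM. In bulk muscle, fewer cells of a type and less RNA per cell cannot be told apart.

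The promoters of the 4 genes called in CAC vs. NOR are shown: Igfbp5 and Irs1 were lower in CAC, and Akt1 and Igfbp4 were higher. Whether these genes changed jointly was not tested. Each run is 300 bases on the strand of the gene, from 250 bases before a RefSeq transcription start to 50 after it (RefSeq, GRCm38.p6). Capitals mark matches to the searched letters, which were GTAAACA (the core bound by FOXO factors), TATAAA (a core promoter element), CAGCTG (the E-box of myogenic factors), CACGTG (the E-box of factors such as MYC), TTCCNGGAA (STAT), TTGCGCAA (C/EBP) and TGACGTCA (CREB), on both strands.
Igfbp5 (chr1:72874816-72875115, minus strand): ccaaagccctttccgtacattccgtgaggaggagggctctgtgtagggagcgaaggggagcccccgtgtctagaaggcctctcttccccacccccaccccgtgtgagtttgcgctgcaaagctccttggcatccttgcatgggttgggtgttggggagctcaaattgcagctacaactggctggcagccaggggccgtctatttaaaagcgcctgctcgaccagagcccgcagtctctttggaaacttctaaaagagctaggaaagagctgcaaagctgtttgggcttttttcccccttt
Irs1 (chr1:82291390-82291689, minus strand): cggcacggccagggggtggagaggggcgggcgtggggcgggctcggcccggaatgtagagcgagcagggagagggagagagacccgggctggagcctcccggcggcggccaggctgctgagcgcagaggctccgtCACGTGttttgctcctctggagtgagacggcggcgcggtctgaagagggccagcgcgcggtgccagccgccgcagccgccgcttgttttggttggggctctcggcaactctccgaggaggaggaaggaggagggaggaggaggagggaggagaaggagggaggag
Igfbp4 (chr11:99040994-99041293, plus strand): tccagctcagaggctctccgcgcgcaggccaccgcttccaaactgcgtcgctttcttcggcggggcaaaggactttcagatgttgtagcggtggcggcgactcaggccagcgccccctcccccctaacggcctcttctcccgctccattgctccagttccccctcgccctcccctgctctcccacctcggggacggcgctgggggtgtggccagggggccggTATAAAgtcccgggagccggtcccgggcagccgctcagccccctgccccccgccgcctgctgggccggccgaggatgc
Akt1, upstream start (chr12:112674835-112675134, minus strand): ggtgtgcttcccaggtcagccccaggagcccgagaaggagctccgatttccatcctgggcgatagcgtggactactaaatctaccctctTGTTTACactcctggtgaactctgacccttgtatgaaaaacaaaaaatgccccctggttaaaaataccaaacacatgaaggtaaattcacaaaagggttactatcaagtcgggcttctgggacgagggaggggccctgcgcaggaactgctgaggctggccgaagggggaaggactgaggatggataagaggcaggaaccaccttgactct
Akt1, downstream start (chr12:112674227-112674526, minus strand): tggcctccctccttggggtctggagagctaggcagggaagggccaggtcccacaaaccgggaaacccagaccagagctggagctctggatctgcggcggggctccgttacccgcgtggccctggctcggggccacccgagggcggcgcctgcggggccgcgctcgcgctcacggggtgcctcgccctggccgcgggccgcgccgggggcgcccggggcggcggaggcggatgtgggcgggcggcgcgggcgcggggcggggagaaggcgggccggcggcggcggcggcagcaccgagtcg
The upstream Akt1 start had 1 match to GTAAACA, on the opposite strand, between 161 and 155 bases before the start, and 3.65% of the 32851 promoters of this length held these letters. Irs1 held CACGTG between 115 and 110 bases before its start, as did Irs2 closer to its own, and 7.15% of all promoters held it. Igfbp4 held TATAAA between 28 and 23 bases before its start, which 13.6% of all promoters held. Igfbp5 held no match to these letters in this window. CAGCTG was found in 16.3% of all promoters and here at Igf1 and at 1 start of Akt2, and the other 3 motifs were found at none of the 16 promoters of 9 of these genes, against 1.15% (STAT), 0.183% (C/EBP) and 1.79% (CREB) of all promoters. Insr had no entry in the promoter set used here. A match describes letters only.

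Igf1, the main growth factor of this family in adult muscle, read 33.5, 41.3, 29.5 and 51.3 CPM in the NOR mice. In the CAC mice it read 19.3, 28.4, 28.1 and 23.6 CPM, all below the lowest NOR mouse. In the AM mice it read 34.5, 39.1, 30.9 and 37.4 CPM, all above the highest CAC mouse. Its log2 fold change was -0.65 ± 0.20 (SE) for CAC vs. NOR with an FDR of 0.0618 and 0.52 ± 0.15 for AM vs. CAC with an FDR of 0.0894, and neither was called. In the KD mice Igf1 spread widely, at 45.9 and 25.0 CPM in replicates 1 and 2 and 14.0 and 53.0 CPM in replicates 3 and 4. The log2 fold change for KD vs. CAC was 0.489 (FDR 0.709), with 0.194 without KD replicate 4 and 0.755 without KD replicate 3. It was 0.816 in the libraries with lymphocyte transcripts and -0.123 in those without. KD replicates 2 and 3, which were low, were also the KD libraries with few lymphocyte transcripts and with 1038.1 and 813.8 CPM of fibroblast markers, against 3001.1 and 3338.6 CPM in KD replicates 1 and 4. The part of these markers in the result was not tested.

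Igf2, the fetal-type ligand, read between 24.1 and 38.3 CPM in NOR and between 17.1 and 38.2 CPM in CAC. It ranged from 25.0 to 55.6 CPM in AM and from 26.8 to 74.0 CPM in KD, so that its groups overlapped in each pair. Its log2 fold change was -0.16 ± 0.24 for CAC vs. NOR, and it was 0.52 ± 0.29 and 0.54 ± 0.36 for AM and KD mice against CAC mice, none of them called. Leaving out AM replicate 4 brought the AM value to 0.34 and leaving out CAC replicate 3 to 0.33, and the KD value was 0.13 without KD replicate 2, the mouse with 74.0 CPM. Of the exon bases of Igf2, 62.8% are shared with the annotated gene Gm49394 on the same strand, which held between 0 and 12 counts per library in the table.

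Igf1r encodes the receptor for IGF1. NOR mice ranged from 25.4 to 30.6 CPM and CAC mice from 27.8 to 39.8 CPM. AM mice ranged from 25.9 to 32.3 CPM and KD mice from 26.1 to 43.7 CPM, and the groups overlapped in each pair. Insr encodes the insulin receptor. It read 115.8, 88.2, 90.7 and 83.5 CPM in NOR and 125.8, 123.0, 136.6 and 160.1 CPM in CAC, with every CAC mouse above every NOR mouse. Its log2 fold change was 0.53 ± 0.13 with an FDR of 0.0345, which is 1.44-fold, so that it passed the FDR limit and not the fold limit. In AM, Insr read 111.4, 115.5, 106.8 and 90.9 CPM, and in KD 94.4, 102.6, 121.7 and 95.1 CPM. All of these lay below the lowest CAC mouse, but the fold changes of 0.781 (AM vs. CAC, FDR 0.116) and 0.758 (KD vs. CAC, FDR 0.343) were not called.

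Irs1, the substrate that couples both receptors to PI3-kinase in muscle, lies on chromosome 1 (GRCm38, 82233101 to 82291416, minus strand). It read 106.1, 147.8, 74.0 and 79.9 CPM in the NOR mice. It read 39.7, 36.2, 41.9 and 47.8 CPM in the CAC mice, all of them below the lowest NOR mouse. The log2 fold change of -1.30 ± 0.22 had an FDR of 0.00910 and was called in each of the 8 fits that left out 1 mouse, with values between -1.43 and -1.07. The NOR mice labelled C57BL/6 were the higher pair, and within the labelled strains the log2 fold change was -1.71 in C57BL/6 (FDR 0.0515) and -0.79 in BALB/c (FDR 0.135), with 2 mice against 2. In AM mice Irs1 read 41.9, 61.1, 47.3 and 73.1 CPM, which overlapped CAC, and AM vs. CAC gave 0.44 ± 0.18 with an FDR of 0.206, or 0.27 without AM replicate 4. In KD mice it read 55.4, 62.5, 110.7 and 61.8 CPM, all above the highest CAC mouse, and KD vs. CAC gave 0.80 ± 0.21 with an FDR of 0.268 (0.0402 by DESeq2). Of its exon bases, 30.9% are shared with Gm9747 on the opposite strand, which held 0 counts in all 16 libraries, and whether the counting used strand was not given in the sources used here.

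Irs2, the other substrate, ranged from 60.5 to 73.3 CPM over the NOR mice and from 46.4 to 87.5 CPM over the CAC mice. The ranges were 47.4 to 61.1 CPM for AM mice and 48.7 to 78.8 CPM for KD mice. Its log2 fold change for CAC vs. NOR was -0.09 ± 0.19 with an FDR of 0.803, whereas Irs1 fell to 0.406 of its NOR level. A test of the difference between the 2 genes was not run.

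Akt1, a serine/threonine kinase expressed in most tissues, lies on chromosome 12 (112653821 to 112674884, minus strand). The NOR mice were close together at 112.4, 111.8, 115.1 and 112.2 CPM. The CAC mice read 172.6 and 170.9 CPM in the C57BL/6-labelled pair and 273.2 and 255.5 CPM in the BALB/c-labelled pair, all above every NOR mouse. CAC vs. NOR gave a log2 fold change of 0.95 ± 0.17 with an FDR of 0.0111, called in each of the 8 fits without 1 mouse. Within the labelled strains it was 0.65 (C57BL/6, FDR 0.0672) and 1.21 (BALB/c, FDR 0.0954).

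In AM mice Akt1 read 138.5, 124.4, 119.8 and 113.5 CPM, below every CAC mouse, and AM vs. CAC gave -0.81 ± 0.18 with an FDR of 0.0392. This call was kept in 1 of 8 fits without 1 mouse, that without CAC replicate 2. It was lost in the other 7, which left out CAC replicates 1, 3 or 4 or any AM mouse. Over the 8 fits the log2 fold change lay between -0.91 and -0.68 and the FDR reached 0.107. With the labelled strain as a covariate it was -0.78 (FDR 0.0618), and the gene was not called. Within the labelled strains AM vs. CAC was -0.38 in C57BL/6 (FDR 0.235) and -1.19 in BALB/c (FDR 0.175). In KD mice Akt1 read 105.8, 152.9, 115.7 and 114.6 CPM, also below every CAC mouse, with -0.83 ± 0.20 and an FDR of 0.267 in KD vs. CAC. It was called there by DESeq2 (0.0147) and by edgeR with all 16 libraries in 1 fit (0.0342).

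Akt2, the isoform most tied to insulin-stimulated glucose uptake, had overlapping groups throughout. It ranged from 155.0 to 268.0 CPM over the NOR mice and from 182.5 to 226.7 CPM over the CAC mice. The ranges were 194.3 to 236.3 CPM for AM mice and 116.7 to 350.1 CPM for KD mice. The log2 fold changes in the 3 comparisons with CAC lay between 0.03 and 0.08, with FDR of 0.897 or more. Akt1 and Akt2 transcripts shared 3 runs of 31 bases of 4143 in Akt1, so few reads could be divided between them. The pseudogene Akt2-ps shared 964 of the 7255 such runs of Akt2.

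Igfbp4, a secreted inhibitor of IGF action, lies on chromosome 11 (99041244 to 99054392, plus strand). It read 187.3, 141.7, 162.0 and 205.6 CPM in NOR and 343.0, 291.0, 362.3 and 243.8 CPM in CAC, without overlap. CAC vs. NOR gave a log2 fold change of 0.83 ± 0.17 with an FDR of 0.0156. Without NOR replicate 3 the FDR was 0.0553 and the gene was not called, and it was called in the other 7 fits without 1 mouse. Within the labelled strains it was 0.99 (C57BL/6) and 0.72 (BALB/c). AM mice read 374.4, 253.0, 269.3 and 216.2 CPM, which overlapped CAC, and the highest of them was the library with hepatocyte transcripts. AM vs. CAC gave -0.15 ± 0.20 (FDR 0.719), with -0.33 (FDR 0.331) without that library, -0.05 without AM replicate 4, -0.07 without CAC replicate 3 and -0.25 without CAC replicate 4. KD mice read 209.8, 156.9, 113.4 and 294.7 CPM, with replicates 2 and 3 again the lowest, and KD vs. CAC gave -0.67 ± 0.30 (FDR 0.451).

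Igfbp5, the binding protein tied to matrix and muscle differentiation, lies on chromosome 1 (72857932 to 72874884, minus strand). It had the largest fold changes of the 10 genes in each comparison with CAC. The NOR mice read 1179.6, 974.9, 710.4 and 632.6 CPM. The CAC mice read 217.5, 319.9, 102.7 and 191.3 CPM, so that the highest CAC mouse lay below the lowest NOR mouse. The log2 fold change was -2.07 ± 0.35 with an FDR of 0.00924, called in each of the 8 fits without 1 mouse (-2.35 to -1.82). Both labelled strains fell, by 1.96 and 2.20 on the log2 scale, and with 2 mice against 2 the BALB/c-labelled pair was not called (FDR 0.127) while the C57BL/6-labelled pair was (FDR 0.0486).

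The AM mice read 646.5, 510.6, 853.3 and 928.0 CPM of Igfbp5, above every CAC mouse. AM vs. CAC gave 1.82 ± 0.34, a 3.54-fold difference, with an FDR of 0.0241. The FDR passed 0.05 when CAC replicate 1 (0.0727), CAC replicate 4 (0.0565), AM replicate 1 (0.0540), AM replicate 3 (0.0650) or AM replicate 4 (0.0698) was left out, with log2 fold changes of 1.60 to 2.12 over the 8 fits. Within the labelled strains the log2 fold change was 1.11 in C57BL/6 and 2.59 in BALB/c. Over the 6 libraries with lymphocyte transcripts it was 1.80, with an FDR of 0.164. The KD mice read 590.7, 503.3, 800.0 and 699.3 CPM, also without overlap with CAC. KD vs. CAC gave 1.63 ± 0.33 with an FDR of 0.231. It was called by DESeq2 (0.000176) and by edgeR with all 16 libraries in 1 fit (0.0342).

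**Figure D1:**
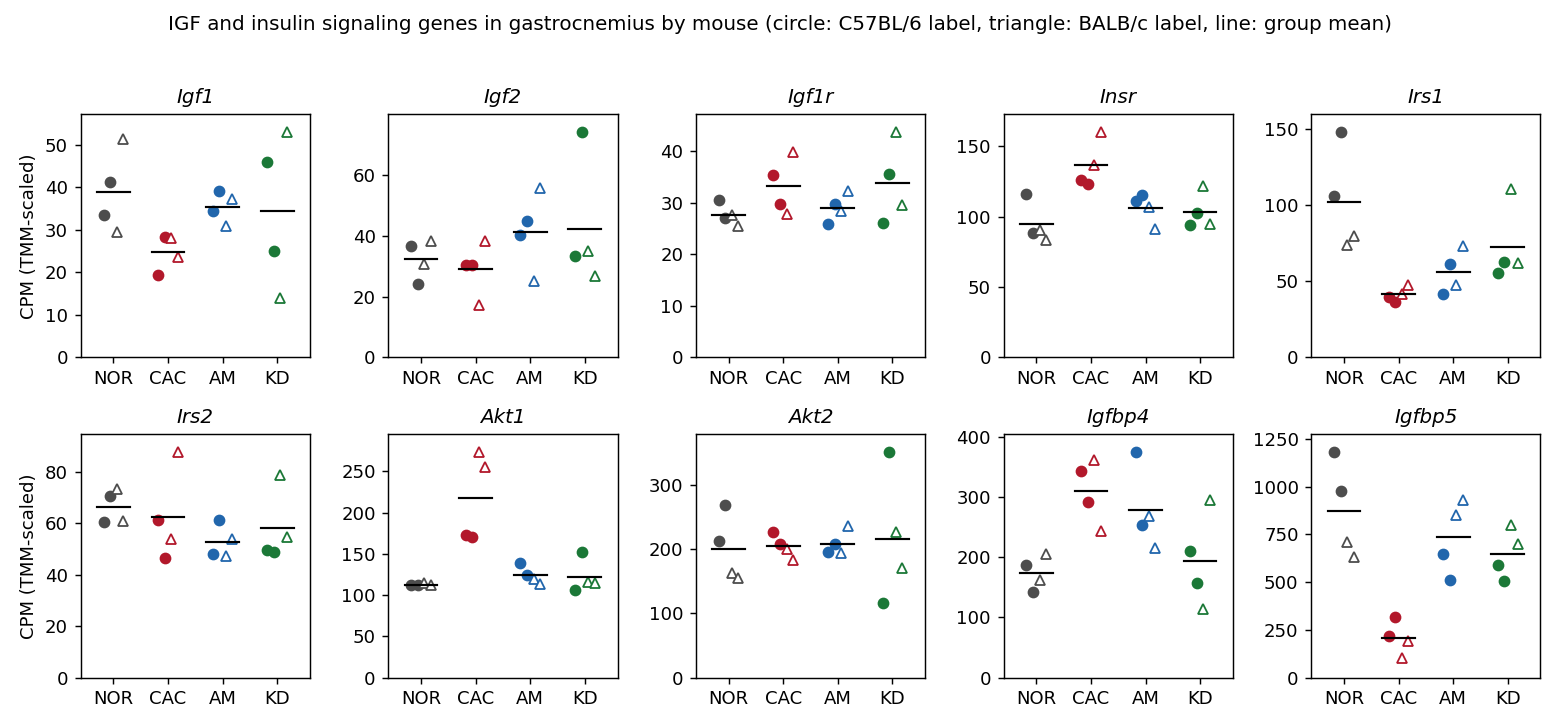
CPM (TMM-scaled, linear axes from 0) of each of the 10 genes in every mouse by group, with filled circles for mice labelled C57BL/6, open triangles for those labelled BALB/c and a line at the group mean. Igfbp5 lies lowest in CAC without overlap, Irs1 has its lowest mean in CAC with AM mice overlapping, Akt1 lies highest in CAC (170.9 to 273.2 CPM against 111.8 to 115.1 CPM in NOR), and Akt2 has overlapping groups.

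Some fibroblast and tendon markers were called in the same comparisons as Igfbp5. In CAC vs. NOR 3 of 8 fibroblast markers (Col1a1, Col3a1 and Dpt) were called lower, with log2 fold changes from -3.61 (Col1a1) to -1.47 (Dpt), and 3 of 5 tendon markers (Tnmd, Fmod and Comp). Of all genes tested, 5.13% were called lower there. All 6 of these markers were called higher in AM vs. CAC, where 1.63% of all genes were. The other 5 fibroblast and 2 tendon markers were not called in either comparison. Dcn, a fibroblast proteoglycan, gave -0.16 ± 0.16 in CAC vs. NOR, and Scx, a tendon transcription factor, 0.22 ± 0.33 there and -0.71 ± 0.22 in AM vs. CAC. In KD vs. CAC the log2 fold changes of these markers lay between -0.59 (Scx) and 2.80 (Col1a1), with FDR of 0.267 or more. KD replicates 2 and 3 had fibroblast sums of 1038.1 and 813.8 CPM, within or below the CAC range, while Igfbp5 in them was 503.3 and 800.0 CPM, above every CAC mouse. The part of these cells in the Igfbp5 result was not tested.

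Per length the genes ranked differently from CPM, as the authors' FPKM divide by 1 length per gene. The length implied by counts and FPKM matched all annotated exon bases for Igfbp5 (6006), Irs1 and Irs2. For the other genes it was a part of them, such as 1408 of 4098 for Akt1, 1722 of 7131 for Akt2 and 1687 of 4416 for Igfbp4. The order between genes in FPKM therefore depends on the lengths used. In NOR muscle the mean FPKM was 139.2 ± 30.9 (SD, n = 4) for Igfbp5, 112.4 ± 31.7 for Akt2, 99.9 ± 17.1 for Igfbp4 and 77.8 ± 7.0 for Akt1. The ranges of Igfbp5, Akt2 and Igfbp4 overlapped in FPKM, from 85.9 to 166.0. Igfbp5 read above Akt2 in each NOR mouse (165.5, 166.0, 117.3 and 107.9 FPKM against 104.1, 159.2, 93.9 and 92.2 FPKM). The order of Igfbp4 with either gene changed between mice and is not resolved. Igf1 (19.4), Insr (18.1), Igf2 (13.4), Irs1 (10.8) and Irs2 (10.2) followed, and Igf1r was lowest at 2.34 ± 0.08 FPKM. In CAC muscle Igfbp4 (194.8 ± 45.7 FPKM) and Akt1 (166.3 ± 56.7 FPKM) had the highest means. The Akt1 range (117.9 to 233.5 FPKM) overlapped those of Igfbp4 and of Akt2 (112.7 to 139.1 FPKM), so this order is not resolved, and Igfbp5 followed Akt2 at 35.6 ± 13.3 FPKM.

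In CAC vs. NOR 4 of the 10 genes were called, 2 higher and 2 lower, where 9.45% of the 14666 genes tested were called (4.32% higher and 5.13% lower). By the FDR limit alone 5 of 10 passed, against 14.0% of all genes. The groups did not overlap for 6 of 10, against 22.8% of all genes. The median absolute log2 fold change of the 10 genes was 0.59, and that of all genes tested was 0.27. With 4 mice against 4, groups that do not overlap have the smallest p that an exact permutation test (two-sided) can give, 0.0286, so that this test adds nothing to the overlap.

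In AM vs. CAC 2 of 10 were called, Igfbp5 higher and Akt1 lower, where 3.66% of 14674 genes were called (1.63% higher and 2.03% lower). The groups did not overlap for 4 of 10 (Igf1, Insr, Akt1 and Igfbp5), against 15.7% of all genes. The median absolute log2 fold change was 0.40 for the 10 genes and 0.25 for all genes.

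In KD vs. CAC edgeR called 0 of 10, where it called 0.00685% of 14593 genes, that is 1 gene. At an unadjusted p under 0.05 there were 4 of 10 (Insr, Irs1, Akt1 and Igfbp5), against 11.1% of all genes, and the groups of the same 4 did not overlap, against 7.00% of all genes. DESeq2 called 3 of 10, against 2.33% of all genes, and edgeR with all 16 libraries in 1 fit 2 of 10, against 0.953% of 15220 genes. By limma-voom it was 0 of 10 and 0% of all genes. CAC mice are the controls of AM and KD alike and enter all 3 comparisons, so the values are given side by side and are not independent.

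**Figure D2:**
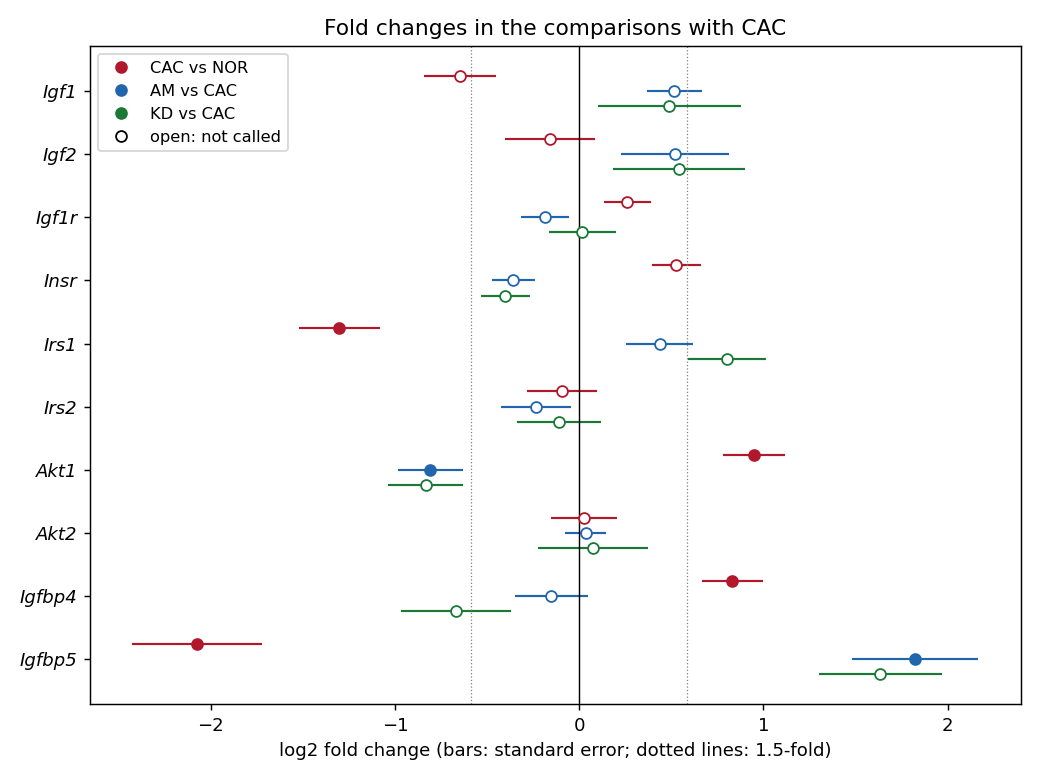
Log2 fold change with its standard error for each gene in the 3 comparisons with CAC, by color, filled where called, with dotted lines at a fold change of 1.5. Igfbp5 lies at -2.07, 1.82 and 1.63, and the KD points are all open.

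AM and KD were also compared with NOR and with each other. edgeR, DESeq2 and limma-voom called 0 of 10 in each of these comparisons, where edgeR and limma-voom called 0% of all genes and DESeq2 0.475% (AM vs. NOR), 0.00678% (AM vs. KD) and 0.210% (KD vs. NOR). In AM vs. NOR 3 of 10 had an unadjusted p under 0.05, against 9.19% of 14738 genes. These were Igfbp4, at 0.69 ± 0.19, Irs1, at -0.86 ± 0.25, and Irs2, at -0.32 ± 0.11, with FDR of 0.518 to 0.528. Every AM mouse lay above every NOR mouse for Igfbp4 and below it for Irs1, so that 2 of 10 did not overlap, against 4.71% of all genes. In KD vs. NOR 0 of 10 had an unadjusted p under 0.05, against 3.54% of all genes, and the log2 fold changes lay between -0.49 (Irs1) and 0.39 (Igf2). Both signs turned in the BALB/c-labelled mice alone, at 0.13 for Irs1 and -0.18 for Igf2, against -1.08 and 0.86 in the C57BL/6-labelled mice, and Igf2 was -0.02 without KD replicate 2. Irs1 was -0.24 without NOR replicate 2 and -0.75 without KD replicate 3. In AM vs. KD it was 0 of 10, against 1.11% of all genes, with log2 fold changes between -0.37 (Irs1) and 0.52 (Igfbp4). Without KD replicate 3 these were -0.12 and 0.32, Igfbp4 was 0.34 without AM replicate 1 and 0.80 without KD replicate 4, and without both AM replicate 1 and KD replicate 3 the values were 0.001 and 0.15. Akt1 differed by 0.15 ± 0.09 in AM vs. NOR and by 0.12 ± 0.13 in KD vs. NOR, and Igfbp5 by -0.24 ± 0.24 and -0.42 ± 0.23. For Igfbp5 the labelled strains had opposite signs, with -0.86 (C57BL/6) and 0.39 (BALB/c) in AM vs. NOR and -0.94 and 0.13 in KD vs. NOR, and the difference between strains was not tested there. Single mice moved these values too: Igfbp5 in AM vs. NOR was -0.08 without NOR replicate 1, -0.11 without AM replicate 2, -0.36 without NOR replicate 4 and -0.37 without AM replicate 4, and in KD vs. NOR it was -0.27 without NOR replicate 1. Akt1 was 0.09 in AM vs. NOR without AM replicate 1 and -0.002 in KD vs. NOR without KD replicate 2.

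A further 54 genes of the same pathway were counted, of which 50 were tested and Ins1, Ins2, Igfbp1 and Irs4 were too low. In CAC vs. NOR 6 of 50 were called, 4 higher and 2 lower, a share near the 9.45% of all genes, so that the count sets nothing apart and single genes are given. The FOXO factors Foxo1 and Foxo3, which AKT restrains and which drive atrophy genes, rose by 1.40 ± 0.15 and 0.94 ± 0.11 on the log2 scale (FDR 0.00214 and 0.00337). Pik3r1, the regulatory subunit of PI3-kinase, rose by 1.61 ± 0.34 (FDR 0.0189). Of the 3 inhibitors called, Inpp5k, a phosphatase of the PI3-kinase product, rose by 0.59 ± 0.10 (FDR 0.00901), while Grb14, an adaptor that blocks the insulin receptor, fell by 2.23 ± 0.37 (FDR 0.00837) and Inppl1, the phosphatase SHIP2, by 0.94 ± 0.13 (FDR 0.00476).

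Foxo1 read 45.0, 47.6, 46.2 and 67.4 CPM in NOR and 149.9, 137.0, 124.0 and 134.6 CPM in CAC. Grb14 read 30.3, 23.0, 21.9 and 18.4 CPM in NOR and 4.49, 6.76, 2.00 and 6.62 CPM in CAC. Neither gene overlapped between the groups.

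By list, beside the same 9.45%, the called genes were 1 of 7 PI3-kinase and PDK1 genes, 3 of 13 inhibitors and 2 of 12 AKT targets. None of the 10 other binding protein and protease genes, 6 substrate and adaptor genes and 2 ligand and receptor genes tested was called by edgeR, of which 5, 0 and 0 had an unadjusted p under 0.05, against 29.1% of all genes. Igfbp3, the main IGF carrier in serum, gave 1.11 with an FDR of 0.116, and Htra1, a protease of IGF binding proteins, -0.55 with an FDR of 0.0383 and a fold change short of the limit. Igfbp6 (-0.63, FDR 0.0683), Stc1 (1.22, FDR 0.0849) and Stc2 (1.07, FDR 0.107) were the others of that list under 0.05 unadjusted. Tbc1d4, in the list of AKT targets, gave 0.54 with an FDR of 0.0257 and also fell short of the fold limit. All of these genes were named after their values were seen. The median absolute log2 fold change of the 50 genes was 0.35, beside 0.27 for all genes.

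In AM vs. CAC 6 of 50 were called, where 3.66% of all genes were. Grb14 rose by 1.84 ± 0.43 (FDR 0.0489) and Inppl1 by 0.72 ± 0.14 (FDR 0.0283). Pik3r1 fell by 1.77 ± 0.16, Foxo1 by 1.32 ± 0.11, Foxo3 by 0.84 ± 0.12 and Tbc1d1, a Rab GTPase activating protein acting on glucose transporter traffic, by 1.29 ± 0.29, with FDR of 0.00223 to 0.0434. Without CAC replicates 1, 2 or 3 or any AM mouse 3 of 50 were called, and without CAC replicate 4 it was 4. In KD vs. CAC edgeR called 0 of 50, with 9 at an unadjusted p under 0.05 (11.1% of all genes), while DESeq2 called 4 (2.33% of all genes) and limma-voom 0. Pik3r1 gave -1.19 ± 0.23 (FDR 0.231), Foxo1 -0.95 ± 0.24 (FDR 0.267) and Grb14 2.00 ± 0.48 (FDR 0.267) there.

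**Figure D3:**
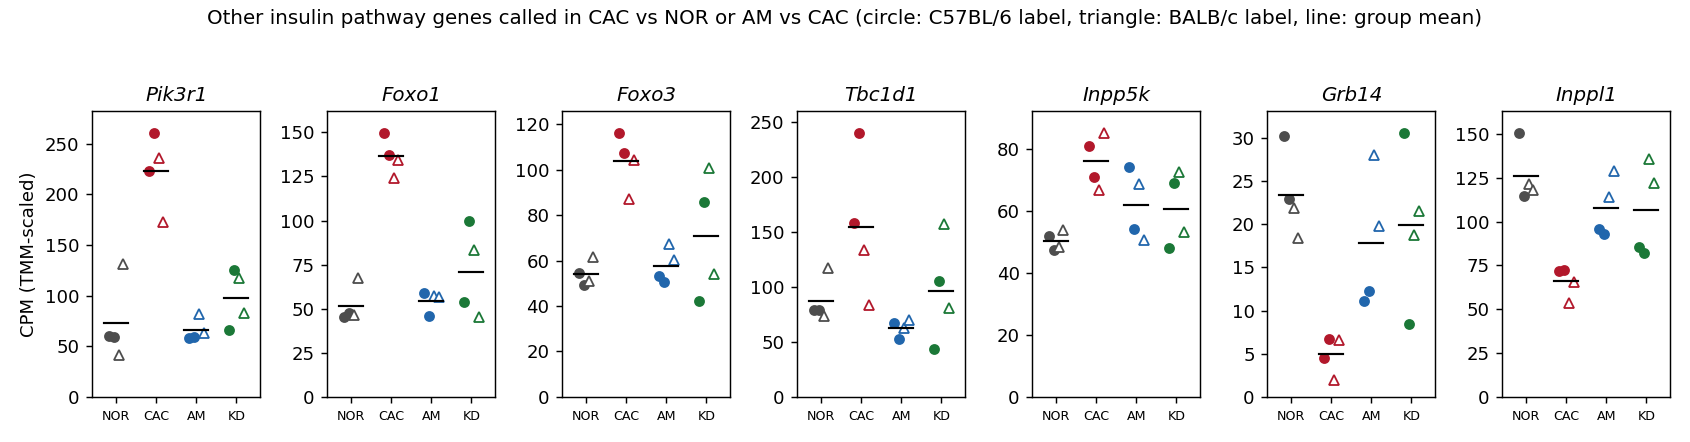
CPM (TMM-scaled, linear axes from 0) by mouse for the 7 other pathway genes called in CAC vs. NOR or AM vs. CAC, with symbols as for the plot of the 10 genes. Foxo1 is 124.0 to 149.9 CPM in CAC and 45.6 to 58.7 CPM in AM, and Grb14 is 1.998 to 6.757 CPM in CAC and 11.06 to 28.01 CPM in AM.

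The labelled strains, which carry the tumor line with them, were compared for the same effects. The interaction of strain with condition was past the FDR limit for 0 of 10 genes by edgeR in each of the 3 comparisons with CAC, as it was for 0% of all genes. At an unadjusted p under 0.05 there were 2 of 10 for CAC vs. NOR, against 4.89% of all genes, 3 when AM was compared with CAC, against 12.4%, and 2 when KD was, against 5.65%. Akt1 was among them in each: its rise in CAC was 0.60 ± 0.15 (log2) larger in the BALB/c-labelled mice, with an FDR of 0.689, and its log2 fold change in AM vs. CAC differed by -0.81 ± 0.17 (BALB/c-labelled minus C57BL/6-labelled mice), with an FDR of 0.269. By DESeq2 the interaction of Akt1 passed in these 2 comparisons, as it did for 0.852% and 3.05% of all genes. Over all 16 libraries, with group in the model, edgeR called 0 of 10 between the labelled strains, as it did for 0% of all genes, with no gene of the 10 under an unadjusted p of 0.05 and 0 called by DESeq2. This edgeR fit therefore did not separate the labelled strains, on which the splits by strain rest.

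**Figure D4:**
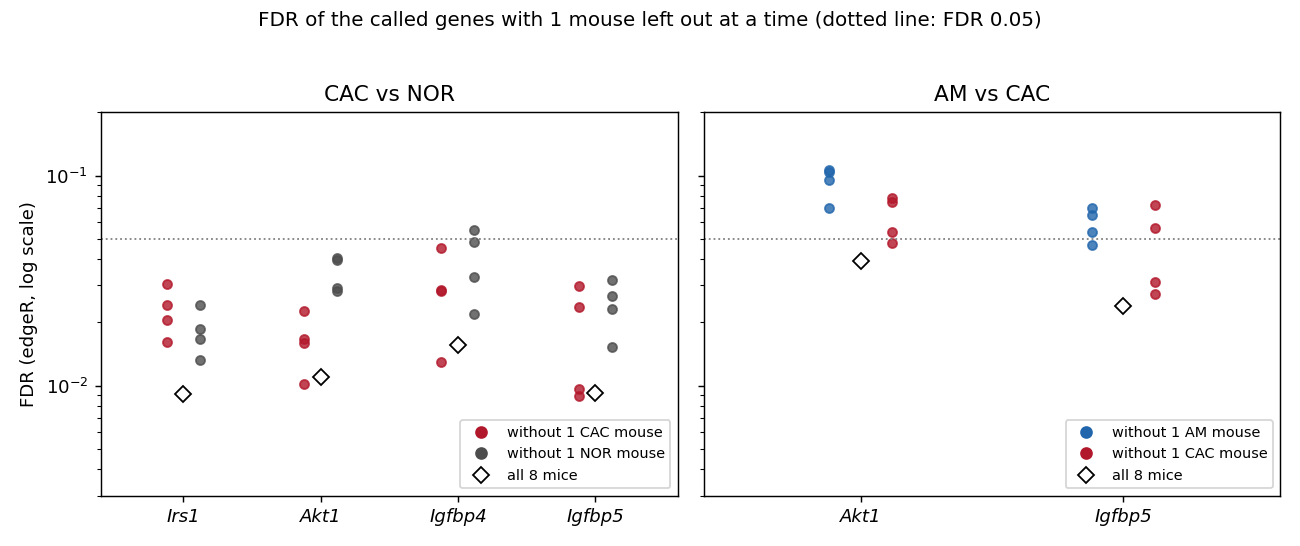
FDR on a log axis for each called gene with 1 mouse left out at a time, colored by the group of the mouse, and with all 8 mice as a diamond; the dotted line is at 0.05. In CAC vs. NOR only Igfbp4 crosses the line, once, and in AM vs. CAC both genes do (Akt1 in 7 and Igfbp5 in 5 of 8 fits).

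The genes nearest to each of the 4 in their profile over the 16 libraries were found among 14665 genes by the mean absolute difference of centred log2 CPM. They were Sypl2 (0.16) and Cers1 (0.21) for Igfbp5, Tmem8b (0.21) and Mlxipl (0.22) for Irs1, Psma7 and Nsun2 (both 0.12) for Akt1, and Rbm3 (0.21) and Cirbp (0.22) for Igfbp4. Psma7, a subunit of the proteasome, was 100.6 ± 4.1 CPM in NOR and 226.8 ± 29.4 CPM in CAC (SD, n = 4), beside Akt1 at 112.9 ± 1.5 and 218.1 ± 53.9 CPM. Sypl2, a protein of the triad junction, had a mean of 591.8 ± 149.5 CPM for NOR mice and 136.2 ± 60.3 CPM for CAC mice, beside 444.3 ± 136.1 CPM with amiloride and 465.2 ± 62.5 CPM with knock-down tumors. The libraries share the same depth range and muscle, and the likeness is a description.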

How the data were processed

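The authors deposited a single table with whole-number read counts per gene, not normalized, and FPKM values, which the authors computed from these counts with 1 length per gene, for 16 gastrocnemius libraries. The submitters' processing notes name fastp, Bowtie2, HISAT2 and StringTie 1.3.1 and the builds mm9 and GRCm38, without roles, and strandedness is not given in the sources used here. Groups came from the labels, and p-values measure the spread between these mice. Counts (35913190 to 61032708 per library) were fitted over all genes in R 4.3.3 with edgeR 4.0.16 (TMM, filterByExpr with a minimum count of 10 and minimum total of 15, F test by quasi-likelihood), with the 8 libraries of a comparison and no covariate. edgeR was used in place of the NOISeq package of the study, which was not installed. A gene was called (a DEG) at an FDR (Benjamini-Hochberg) of 0.05 or less with a fold of 1.5 or more, or 0.667 or less. Log2 CPM used a prior count of 2. Beside this, an exact permutation test (two-sided) was run on the CPM of each of the 10 genes. The test was tried on simulated data. FPKM served for levels between genes and 1 alternative ratio.

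The 10 genes, the gene lists and the named-gene rule were chosen with earlier results of these data known. Named were all 10 genes, the pathway genes called in any of the 3 comparisons with CAC, and the 2 genes most alike to each gene called in CAC vs. NOR. Of 135 list genes, 133 were found (Xist and H2-Ea were not), and 1 pathway gene is not reported here. Marker lists covered fast and slow myofibers, satellite cells, fibroblasts, endothelium, macrophages, lymphocytes, adipocytes, hepatocytes, tendon and male sex. Satellite cell, slow myofiber, endothelial and macrophage sums had overlapping ranges in all groups, with 60.95 to 112.4, 961.6 to 6175.4, 882 to 1504.1 and 39.0 to 287.8 CPM. Of the markers in these lists, the endothelial marker Pecam1 was called higher in CAC vs. NOR (0.77, FDR 0.0126), where 4.32% of all genes were. Pecam1 was not called in AM vs. CAC (-0.36, FDR 0.151). Adipocyte sums ran from 249.9 to 4173 CPM.

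Alternatives changed the scaling (RLE, upper-quartile, total counts), the tool (DESeq2 1.42.0 or limma-voom of limma 3.58.1), the estimation (robust), the count filter, the fold limit and the covariates (strain, or replicate number as a block). Others fitted the 16 libraries together, fitted each labelled strain by itself, took the FPKM ratio, or left out each mouse. Those on lymphocyte or adipocyte markers and on AM replicate 1 with KD replicate 3 were chosen after seeing the data. Positions, overlaps and shared 31-base runs came from GENCODE M21 (GRCm38), which held 21905 of the 21923 identifiers, and promoters from RefSeq (GRCm38.p6). Tables were read with data.table (version 1.17.8).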

Additional observations from a re-analysis of the deposited data

Results flagged for a closer look

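Irs1 in KD replicate 3 (110.7 CPM) lay far above the other 3 KD mice, which read 55.4 to 62.5 CPM, and passed Dixon's limit for 4 values. The same library held 0 CPM of the Y-linked markers and 0.567 CPM of the lymphocyte markers. Chance alone flags about 1 in 20 such groups, and 40 groups (10 genes in 4 groups) were looked at. Without this mouse KD vs. CAC gave a log2 fold change of 0.55 for Irs1, against 0.80 with it.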

How the results depend on the processing

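No called gene reversed under any alternative. Except where a share is given, the counts below stand without the share of all genes called in the same fit. They do not tell whether a lost call is particular to these genes, and fits with fewer mice have less power for every gene. The 10 genes called in CAC vs. NOR (4) became 2 with a fold limit of 2, 1 in C57BL/6-labelled mice alone, 0 in BALB/c-labelled mice alone and 0 in the libraries with lymphocyte transcripts (5 libraries, log2 fold changes of Igfbp5, Irs1, Akt1 and Igfbp4 -1.87, -1.36, 0.97 and 0.94), and 3 to 5 without 1 mouse. Igfbp4 was lost with all 16 libraries in 1 fit, Igf1 was gained by DESeq2 and with the adipocyte covariate, and Insr with total counts as the only scaling and without NOR replicate 1. The 6 other pathway genes became 11 by DESeq2 (which called 13.1% of all genes), 3 with a fold limit of 2 and 0 in BALB/c-labelled mice alone. In AM vs. CAC the 2 genes became 1 (Igfbp5) with total counts, with strain as a covariate and with a fold limit of 2, and 0 with the replicate block, in either labelled strain alone, without AM replicate 1 and KD replicate 3, in the libraries with lymphocyte transcripts and with the lymphocyte covariate. The log2 fold changes of Akt1 and Igfbp5 (-0.809 and 1.823) were then -0.780 and 1.903 with the block (FDR 0.203 and 0.161), -0.869 and 1.880 without those libraries, -0.839 and 1.798 in the libraries with lymphocyte transcripts and -0.885 and 1.877 with the covariate. Without 1 mouse the count was 0 to 2: 0 without CAC replicates 1 or 4 or AM replicates 1, 3 or 4, 1 without CAC replicate 3 or AM replicate 2. The 6 other pathway genes became 3 with strain as a covariate and with all 16 libraries in 1 fit, 0 with the replicate block and in either strain alone, and 3 to 4 without 1 mouse. In KD vs. CAC the 0 genes became 3 by DESeq2 and 2 with all 16 libraries in 1 fit, and the 0 other pathway genes 4 and 2. The strain interaction counts of 0 became 1 by DESeq2 in CAC vs. NOR and in AM vs. CAC. The cause was not tested for any of these.

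Same-numbered mice did not deviate together more than others. Their r ran from -0.636 to 0.601, with a median of -0.209 and 6 of 24 pairs over 0.1. For different numbers the median was 0.065, with 33 of 72 pairs over 0.1, so no pairing by number was seen. Of 16 mice, 0 correlated best with its own number in every other group, but few would by chance, so this count adds little. The replicate block changed no call in CAC vs. NOR.

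Directions reversed only for values that were not called. In CAC vs. NOR these were Igf2 (0.055 in C57BL/6-labelled mice alone, -0.319 to 0.044 without 1 mouse), Irs2 (0.026 with total counts and as the FPKM ratio, 0.068 in BALB/c-labelled mice alone, -0.302 to 0.025 without 1 mouse) and Akt2 (-0.023 with upper-quartile scaling, -0.113 in C57BL/6-labelled mice alone, -0.075 to 0.202 without 1 mouse). In AM vs. CAC these were Igf1r (0.016 in libraries with lymphocyte transcripts), Irs2 (0.020 in C57BL/6-labelled mice alone, 0.071 in libraries with lymphocyte transcripts) and Akt2 (-0.023 with total counts, -0.024 as the FPKM ratio, -0.105 in C57BL/6-labelled mice alone, -0.039 to 0.086 without 1 mouse). In KD vs. CAC these were Igf1 (0.489 with all 8 mice, -0.123 in the libraries without lymphocyte transcripts), Igf1r (-0.112 with total counts, as the FPKM ratio and without KD replicate 3, -0.059 in C57BL/6-labelled mice alone, -0.040 in libraries with lymphocyte transcripts, -0.008 with either covariate, -0.112 to 0.121 without 1 mouse), Irs2 (0.068 in libraries with lymphocyte transcripts, -0.273 to 0.104 without 1 mouse) and Akt2 (-0.093 with total counts and as the FPKM ratio, -0.017 by limma-voom, -0.026 with the replicate block, -0.034 and -0.029 with the lymphocyte and adipocyte covariates, -0.494 in libraries with lymphocyte transcripts, -0.263 to 0.276 without 1 mouse).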
